A study of Arabidopsis thaliana with 10 samples.

Results

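AT1G05562 is a long noncoding RNA (lncRNA) locus of Arabidopsis thaliana that lies opposite UGT75B1, a gene for a glucosyltransferase. It was chosen by its locus identifier after its levels in these libraries had been seen, and it is 1 of the 1362 lncRNA loci with expression values in the study's catalogue, of which 384 are annotated and 978 predicted. Its levels are therefore given as a description, with no test.

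The libraries were made from wild-type Col-0 seedlings, 12 days old, after polyadenylated RNA and ribosomal RNA had been removed; what is left is called poly(A)- RNA here. Seedlings were kept in 200 mM NaCl (salt), in 300 mM mannitol (the study's drought treatment, an osmotic agent), at 4 °C (cold) or at 37 °C (heat), each for 12 h and for 3 h, and the control was untreated seedlings taken at 3 h. Each of these 9 conditions has 1 strand-specific, single-end library with reads of 100 nt, so no difference between conditions has a replicate check, and the intervals below cover counting error only. No untreated seedlings of 12 h were analysed here, so in a ratio of a 12 h library to the control, stress and time of sampling cannot be told apart.

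UGT75B1 belongs to the UGT family, enzymes that move a sugar from a UDP-sugar onto small molecules such as hormones and flavonoids. In Arabidopsis it is known as a glucosyltransferase of the cell plate that was found together with callose synthase, and as an enzyme that can glucosylate abscisic acid, the hormone of water shortage. RNAs read from the other strand of a coding gene are called natural antisense transcripts; some are known to alter the output of their partner gene, and others have no known role.

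The deposited model of AT1G05562 is a single exon of 1288 nt on the plus strand of chromosome 1 (TAIR10, chr1:1645875-1647162). It lies wholly inside UGT75B1 (AT1G05560), which RefSeq annotates on the minus strand without an intron over 2136 bases (chr1:1645300-1647435). It covers 1209 of the 1410 bases (85.7%) of the coding sequence of the shorter UGT75B1 isoform, and leaves out 201 coding bases at the stop codon end. RefSeq now draws AT1G05562 over the same 2136 bases as UGT75B1, which puts its start 575 bases before the deposited one. The next gene on the far side of the UGT75B1 start is CALS1, callose synthase 1, whose end is 413 bp from the end of AT1G05562. No other catalogue locus with expression values lies within 50 kb, and the nearest of 5 predicted loci without such values is 975 bp away. The labels describe strand-specific libraries, but whether the authors counted reads by strand is not stated in what was used here, so how many reads of UGT75B1 were counted for AT1G05562 was not tested. The same holds for every locus below that lies opposite a gene.

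**Figure D1:**
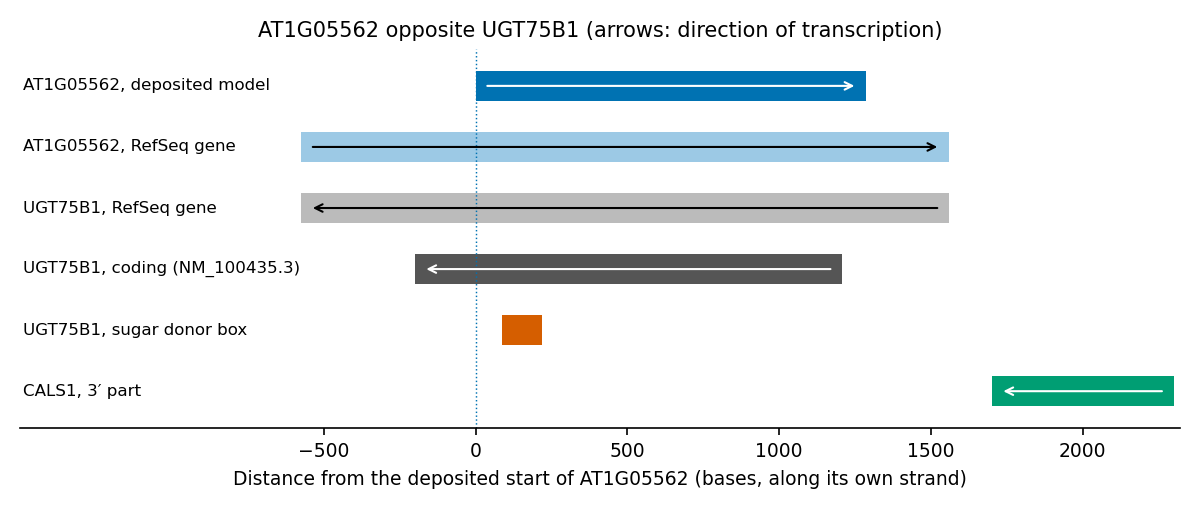
Map of AT1G05562 and its neighbours, with the distance from the deposited start of AT1G05562 in bases on the x axis and the direction of transcription shown by arrows. The 1288 nt of the deposited model lie within UGT75B1 and cover its sugar donor box, while CALS1 lies 413 bp beyond the deposited end.

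The stretches that place AT1G05562 against the enzyme are given 5′ to 3′ on its own (plus) strand, read from the RefSeq genome TAIR10.1. The first runs from the base opposite the end of the UGT75B1 stop codon, with the bases of the deposited transcript in capitals (chr1:1645674-1645973).
Deposited start of AT1G05562: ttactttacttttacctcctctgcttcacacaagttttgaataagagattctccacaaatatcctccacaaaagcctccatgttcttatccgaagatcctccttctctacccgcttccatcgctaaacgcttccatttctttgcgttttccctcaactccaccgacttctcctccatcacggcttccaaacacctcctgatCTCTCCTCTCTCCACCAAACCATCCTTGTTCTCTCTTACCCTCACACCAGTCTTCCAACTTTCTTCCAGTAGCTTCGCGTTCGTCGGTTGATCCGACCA
The next stretch lies opposite the PSPG box, the signature by which plant glycosyltransferases hold the sugar donor. In UGT75B1 a translation of the coding sequence put this box at residues 331 to 374 of 469, wholly within the deposited AT1G05562, and capitals mark the bases opposite its His-Cys-Gly-Trp codons (chr1:1645962-1646093).
Opposite the PSPG box: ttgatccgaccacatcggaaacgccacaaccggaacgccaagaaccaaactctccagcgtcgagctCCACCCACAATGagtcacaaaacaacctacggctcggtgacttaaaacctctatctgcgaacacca
The last lies near the 3′ end of AT1G05562, with the bases opposite the start codon of the shorter isoform in capitals (chr1:1647024-1647113).
Opposite the UGT75B1 start codon: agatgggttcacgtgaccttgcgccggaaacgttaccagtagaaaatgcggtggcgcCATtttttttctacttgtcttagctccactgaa

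The deposited transcript held 45.6% G and C. Its best match elsewhere in the genome was the paralogue UGT75B2, 7961 bp away, with 86.4% identity over 1223 aligned bases. No run of 100 nt, the read length, occurred a second time in the genome, and 31 of 1239 runs of 50 nt (2.50%) did. The start window shown above was searched on both strands for the cores of 2 stress elements, ACGTG (the abscisic acid response element) and CCGAC (the dehydration response element). ACGTG had no match, and 23.3% of the same 300-base windows of the 1362 catalogue loci hold it. CCGAC had 3 matches, starting 40 bases before and 82 and 92 bases after the deposited start. Of the catalogue windows 16.7% hold it, and of those of annotated loci 22.9%. A window of 280 bases at the RefSeq start, mostly upstream of it, held neither, against 27.3% and 14.6% of the annotated loci. All 3 CCGAC matches lie in UGT75B1 coding sequence. The last stretch shown above, opposite the start codon, was not part of this search, and it does hold ACGTG. All of these matches are a description of letters only.

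Depth ran from 17.6 M mapped reads (salt, 12 h) to 37.0 M (heat, 3 h), with 25.2 M in the control. Levels are RPKM, reads per 1000 bases of exon and per M mapped reads. Over the 59 lncRNAs that each library read at least 5 times, the median ratio to the control was above 1 in all 8 stress libraries, by log2 0.04 (heat, 3 h) to 0.91 (mannitol, 12 h), so a ratio rescaled by this median is given where it changes a statement. Summed over the 8 stress comparisons, in which a locus can count more than once, there were 514 calls of at least 2-fold higher and 160 of at least 2-fold lower than the control, and 324 and 181 calls after rescaling. The catalogue holds no protein-coding gene, so the seedling label was not checked against marker genes, and UGT75B1 itself was not analysed here. In RNA of bulk seedlings, fewer cells of a type and less RNA per cell cannot be told apart.

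In RPKM, AT1G05562 was highest in the osmotic treatments, and within each of them at 3 h. After rescaling, mannitol at 12 h was no longer among the highest, as given below. In salt it had 364 reads (16.1 RPKM) at 12 h and 979 reads (24.1 RPKM) at 3 h. In mannitol it had 274 reads (10.1 RPKM) at 12 h and 670 reads (19.9 RPKM) at 3 h. All of these lay above the control, with 189 reads and 5.83 RPKM. In cold it had 118 reads (2.88 RPKM) at 12 h and 409 reads (9.64 RPKM) at 3 h, and in heat 399 reads (9.02 RPKM) at 12 h and 174 reads (3.65 RPKM) at 3 h. So cold and heat each had 1 library above the control and 1 below it, at opposite times. The highest library was 8.37-fold above the lowest, and the mean over the 9 libraries was 11.2 RPKM.

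**Figure D2:**
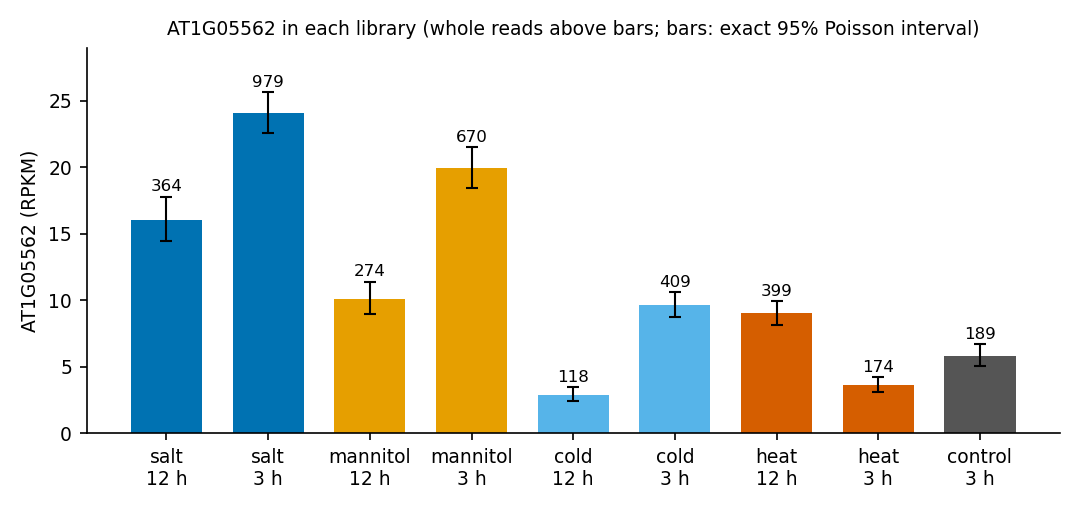
RPKM of AT1G05562 in each library (1 bar per library, error bars the exact 95% Poisson interval of the reads, whole reads above the bars). Salt at 3 h (24.1 RPKM) and mannitol at 3 h (19.9 RPKM) stand highest, and cold at 12 h (2.88 RPKM) and heat at 3 h (3.65 RPKM) lie below the control (5.83 RPKM).

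Ordered by level, the libraries ran from salt at 3 h through mannitol at 3 h, salt at 12 h, mannitol at 12 h, cold at 3 h, heat at 12 h, the control and heat at 3 h to cold at 12 h. Mannitol at 12 h, cold at 3 h and heat at 12 h could not be put in order by their counts, since the 95% interval of each neighbouring ratio held 1 (1.05, 0.897 to 1.23, and 1.07, 0.929 to 1.23). The same was true of heat at 3 h over cold at 12 h (1.27, 0.997 to 1.61). Every other step in the order exceeded counting error. The order also depends on the scaling. Rescaled by the median ratio, mannitol at 12 h (5.37 RPKM) lay below cold at 3 h (7.27), heat at 12 h (6.88) and the control (5.83).

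The salt libraries stood 2.76-fold (2.31 to 3.31) above the control at 12 h and 4.14-fold (3.54 to 4.86) above it at 3 h. A locus was called higher or lower where log2(RPKM + 1) differed by at least 2-fold, which understates the change of low loci. AT1G05562 was called higher in both, by log2 1.32 at 12 h and 1.88 at 3 h; of all 1362 loci 7.64% were called higher at 12 h and 3.45% at 3 h. Over all loci the median of the mean level was only 0.083 RPKM. Of the 55 loci with at least 1 RPKM in the control, 20% were called higher at 12 h and 16.4% at 3 h. Called lower were 16 of the 55 at 12 h and 28 at 3 h. Of all loci, 8 had a larger log2 difference than AT1G05562 at 3 h. After rescaling, the ratio was 1.64 at 12 h, where the call was lost (log2 0.63 on rescaled RPKM + 1, as for all rescaled calls), and 3.77 at 3 h, where it was kept (log2 1.75).

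In mannitol AT1G05562 was 1.74-fold (1.44 to 2.10) above the control at 12 h, under the 2-fold rule, in a comparison where 9.4% of all loci were called higher. At 3 h it was 3.42-fold (2.91 to 4.04) above it and called higher, against 3.23% of all loci. Of the 55 loci with at least 1 RPKM in the control, 20% were called higher at 3 h and 22 loci lower. Of all loci, 12 had a larger log2 difference than AT1G05562 at 3 h. Rescaled, the ratio was 0.923 at 12 h, which turned its direction, and 2.48 at 3 h, where the call was kept (log2 1.18). Salt stood above mannitol at both times, 1.59-fold (1.35 to 1.86) at 12 h and 1.21-fold (1.10 to 1.34) at 3 h. Neither difference reached 2-fold. NaCl and mannitol were given at different concentrations, so these ratios compare the treatments as applied.

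In cold AT1G05562 lay 2.02-fold (1.60 to 2.57) below the control at 12 h, a log2 difference of -0.82 on log2(RPKM + 1), and 1.66-fold (1.39 to 1.98) above it at 3 h. Neither reached the call. At 12 h 1.4% of all loci were called lower and 5.73% higher, and at 3 h 2.2% were called higher. Rescaled, the ratio was 0.329 at 12 h, which passes the rule as lower (log2 -1.23), and 1.25 at 3 h. In heat it was 1.55-fold (1.30 to 1.85) above the control at 12 h and 1.60-fold (1.29 to 1.97) below it at 3 h, again under 2-fold. At 12 h 4.92% of all loci were called higher, and at 3 h 1.17% were called higher and 1.32% lower. Rescaled, these ratios were 1.18 at 12 h and 0.607 at 3 h.

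**Figure D3:**
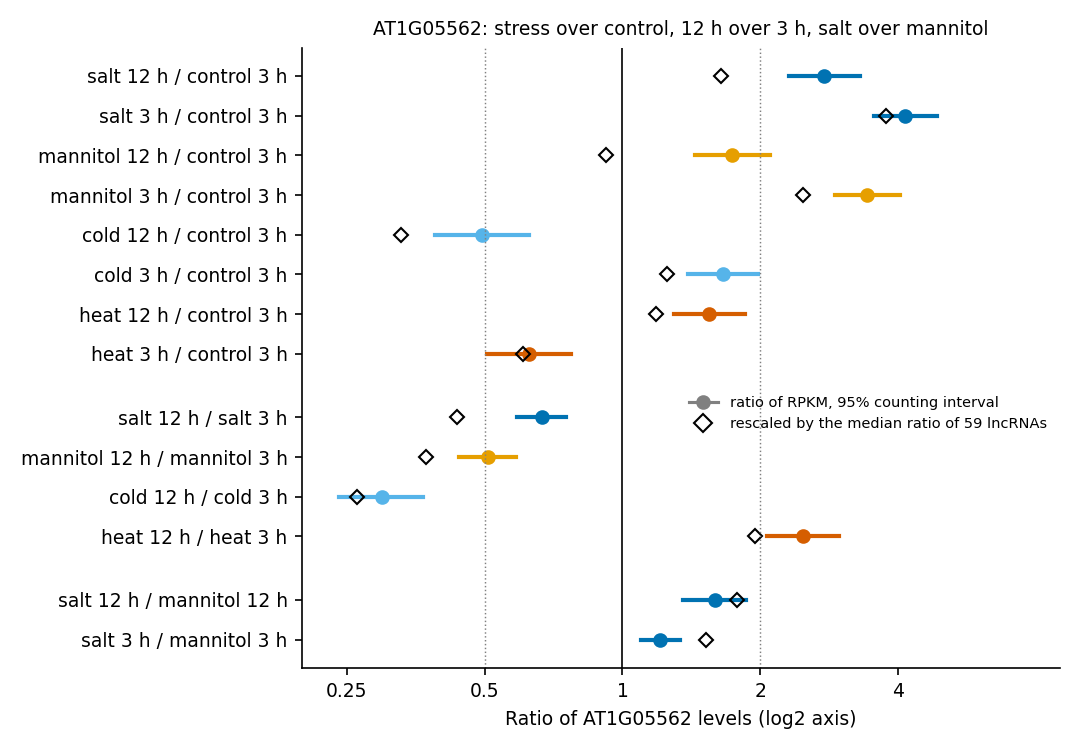
Ratios of AT1G05562 levels on a log2 axis for stress over control, 12 h over 3 h and salt over mannitol, with 95% counting intervals (filled points and bars) and after rescaling by the median ratio of 59 lncRNAs (open diamonds; dotted lines at 0.5 and 2). Salt at 3 h stays near 4-fold under both scalings (4.14 and 3.77), whereas mannitol at 12 h lies above 1 as deposited (1.74) and below 1 rescaled (0.923).

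The 12 h and 3 h libraries of a stress can be set against each other without the control. AT1G05562 was lower at 12 h than at 3 h in cold, at a ratio of 0.299 (0.241 to 0.367), in mannitol at 0.508 (0.440 to 0.585) and in salt at 0.667 (0.589 to 0.753). In heat it was 2.47-fold (2.06 to 2.97) higher at 12 h than at 3 h. Only the cold and heat ratios passed the 2-fold rule, lower in cold (log2 -1.46, against 1.03% of all loci) and higher in heat (log2 1.11, against 4.26%). The heat call was lost after rescaling (log2 0.80), and the salt and mannitol ratios then passed it as lower (log2 -1.12 and -1.28).

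Of the 95 loci with a mean of at least 1 RPKM, 34 were lower at 12 h in cold, 20 in salt, 21 in mannitol and 30 in heat. Counted from the lowest 12 h over 3 h log2 difference, AT1G05562 ranked 5 of all 1362 loci in cold, 14 in mannitol and 36 in salt. Among the 26 loci with at least 20 reads in every library, a limit set after values were seen, AT1G05562 had the lowest 12 h over 3 h difference in cold, in mannitol and in salt. Among the same 26 it had the largest log2 difference from the control in salt at 3 h.

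By mean level AT1G05562 ranked 8 of the 1362 loci. In salt its rank was 6 at 12 h and 3 at 3 h, in mannitol 12 at 12 h and 4 at 3 h, and in the control 14. In cold its rank was 47 at 12 h and 6 at 3 h, and in heat 17 at 12 h and 22 at 3 h. Its share of all lncRNA reads lay between 0.529% (cold, 12 h) and 8.48% (salt, 3 h). It was the highest by mean of the 65 annotated loci that lie wholly inside a coding gene of the other strand, whose median was 0.185 RPKM.

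The loci next to it in level had other patterns over the 9 libraries, though some shared part of its changes. In salt at 3 h the locus just above it was AT3G55485, which overlaps a snoRNA gene on its own strand and had 30.8 RPKM there and 38.8 RPKM in the control. The locus just below was level1_lnc-170, a predicted small RNA precursor, with 16.0 RPKM in salt at 3 h and 5.00 RPKM in the control; its highest level was in mannitol at 12 h (40.5 RPKM). In the control the neighbours were level1_lnc-24, a predicted transposable element locus with no read in salt at 3 h and 6.27 RPKM in the control, and AT1G70185, an annotated small RNA precursor with 0.941 RPKM in salt at 3 h and 5.54 RPKM in the control. AT1G70185 was lower in cold at 12 h than at 3 h (1.21 and 5.68 RPKM), as AT1G05562 was, and level1_lnc-170 shared its rise in salt at 3 h.

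Likeness to AT1G05562 was measured as Pearson's r of log2(RPKM + 1) over the 9 libraries, for the other 94 loci with a mean of at least 1 RPKM. The values ran from -0.88 to 0.67 with a median of 0.06, 9 were above 0.5, and all are descriptions, since the libraries share their depth and scaling across loci. The most alike was level2_lnc-376 (r = 0.67), a predicted small RNA precursor over a transcribed pseudogene, with 103 reads in salt at 12 h, 75 at 3 h and none in the control. AT1G04295 (r = 0.66) lies opposite the thioesterase gene AT1G04290 and had 88 reads in salt at 12 h, 103 at 3 h and 14 in the control. Both were high in salt and mannitol, as AT1G05562 was, but in RPKM both were higher at 12 h than at 3 h in those treatments (9.06 and 5.92 RPKM in salt for AT1G04295), and AT1G05562 was not. After rescaling, the levels of AT1G04295 in salt no longer differed in this way (5.40 and 5.39).

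The other loci among the 10 most alike were level1_lnc-281 (r = 0.64), AT1G50659 (0.61), AT1G06002 (0.58), AT5G48412 (0.55), AT5G23410 (0.52), AT2G31751 (0.52), level1_lnc-322 (0.52) and level2_lnc-325 (0.47). AT1G06002, classed as a small RNA precursor, lies opposite AT1G06000, which RefSeq describes as a flavonol rhamnosyltransferase of the UDP-glycosyltransferase superfamily. AT2G31751 lies opposite UGT74D1, an enzyme that glucosylates auxin. The least alike were AT4G36648 (r = -0.73), level1_lnc-134 (-0.83) and level2_lnc-168 (-0.88), a transcribed pseudogene with 53 reads in salt at 12 h, 35 at 3 h and 358 in the control.

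The list depended on single libraries. Without salt at 3 h 19 loci had an r above 0.5, without cold at 12 h 15 and without heat at 3 h 4, and at least 6 of the 10 stayed among the highest 10 whichever library was left out. A locus just under the limit of 1 RPKM, AT4G37432 (mean 0.941 RPKM), had a higher r (0.89) than any above the limit; it lies opposite the cytochrome P450 gene CYP91A2 and is named after its value was seen. It had 23 reads in salt at 12 h and 48 at 3 h, 25 in mannitol at 12 h and 51 at 3 h, 13 in cold at 12 h and 42 at 3 h, and 16 in the control. In RPKM it was lower at 12 h than at 3 h in all 3 treatments, as AT1G05562 was. The levels were 0.371 and 1.16 RPKM in cold, 1.08 and 1.77 in mannitol and, closer together, 1.19 and 1.38 in salt. No counting interval was made for these differences.

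**Figure D4:**
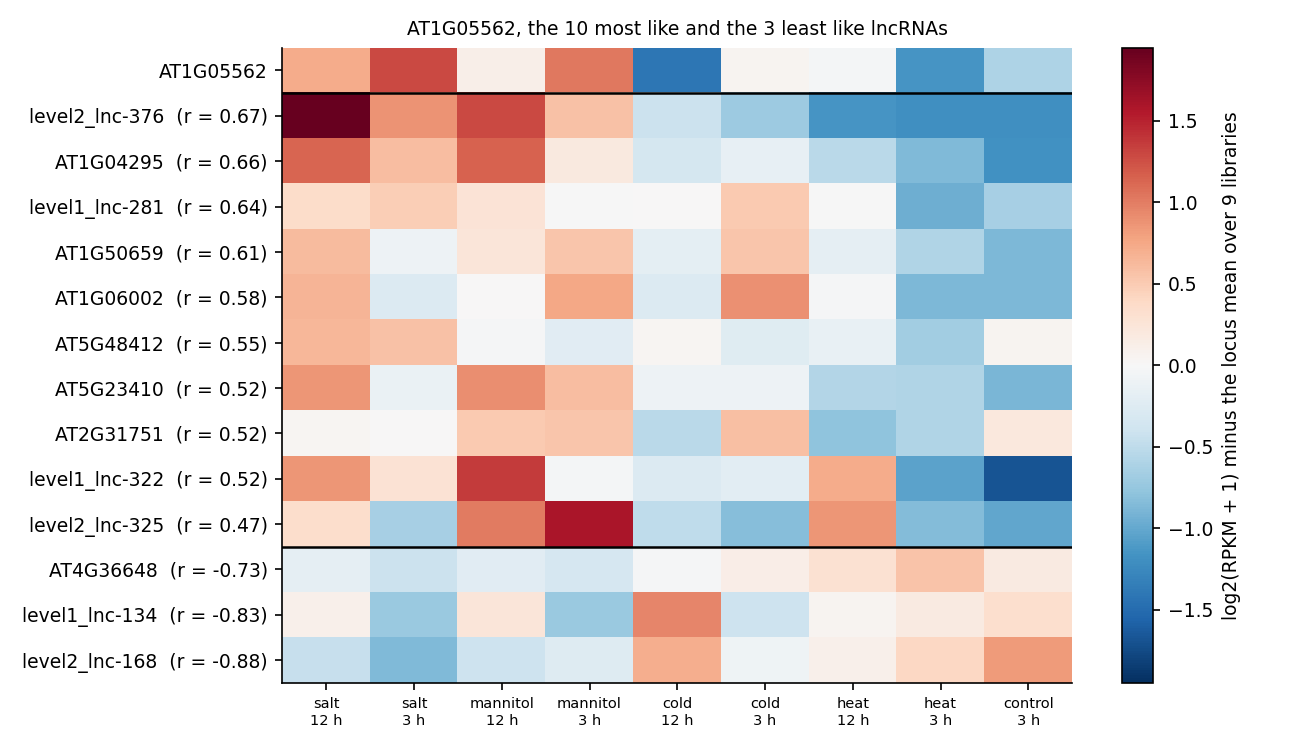
Levels of AT1G05562, of the 10 lncRNAs most like it and the 3 least like it, as log2(RPKM + 1) minus the mean of each locus over the 9 libraries (rows are loci, columns libraries). AT1G05562 peaks in salt at 3 h, whereas level2_lnc-376 and AT1G04295 (r = 0.67 and 0.66) are higher in salt at 12 h than at 3 h, AT1G04295 only before rescaling.

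Other lncRNAs beside genes of the same family and of its pathways were taken from lists of gene symbols. Of 58 genes with a UGT symbol, 10 had a catalogue locus within 1000 bp, which gave 10 loci, all on the strand opposite to their UGT gene. Only 4 of the 10 reached 10 reads in some library, AT1G05562 among them, and the other 6 had at most 9. Of the 10, 1 each was called higher than the control in salt at 12 h, in salt at 3 h and in mannitol at 3 h, each time AT1G05562. Of all loci 7.64%, 3.45% and 3.23% were called higher in these comparisons. In cold at 3 h 1 of the 10 was called higher, AT2G36792, against 2.2% of all loci. The other stress comparisons gave no call in the list. The median log2 difference of the 10, AT1G05562 included, lay between 0 and 0.21 (cold, 3 h) in the 8 stress comparisons and was 0.15 in salt at 3 h and 0 at 12 h; over all loci it was 0 in each. The list of 29 abscisic acid genes held no UGT gene, so UGT75B1 was not on it. None of the 29 had a locus within 1000 bp. Of 14 callose genes 1 had, CALS1, whose neighbour is AT1G05562 itself.

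The other loci of that list that reached 10 reads each had their own pattern. AT2G36792, opposite UGT73C6, which glucosylates brassinosteroids and flavonols, was highest in cold at 3 h (3.84 RPKM), with 61 reads in cold at 12 h and 199 at 3 h, against 19 in the control. That is 8.01-fold (5.00 to 13.6) above the control in cold at 3 h, and the locus was called higher there. It had 47 reads in salt at 12 h and 92 at 3 h, 36 in mannitol at 12 h and 26 at 3 h, and 80 in heat at 12 h and 100 at 3 h. AT2G31751, opposite UGT74D1, had 54 reads in salt at 12 h and 93 at 3 h, 104 in mannitol at 12 h and 133 at 3 h, 32 in heat at 12 h and 49 at 3 h, and 92 in the control. In heat at 12 h its RPKM was 3.92-fold (2.60 to 6.06) below the control, just under the rule on log2(RPKM + 1) (log2 -0.98), where AT1G05562 was above the control. AT1G78265, opposite UGT85A4, had few reads, 24 in cold at 12 h and 32 at 3 h, 15 in salt at 12 h and 4 at 3 h, 7 in heat at 12 h and 26 at 3 h, and 7 in the control. Its 12 h over 3 h ratio was 6.72 (2.14 to 27.8) in salt and 0.290 (0.106 to 0.687) in heat, the opposite directions to those of AT1G05562, and no ratio of it passed the rule on log2(RPKM + 1).

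In cold, AT2G31751 and AT2G36792 were at least 2-fold lower at 12 h than at 3 h, as AT1G05562 was, and AT1G78265 was not. At 12 h against 3 h AT2G31751 had 47 and 175 reads, a ratio of 0.278 (0.197 to 0.385), and AT2G36792 had 61 and 199, a ratio of 0.317 (0.234 to 0.424), beside 0.299 for AT1G05562. All 3 were called lower, which says nothing of the list as a whole, since AT1G05562 was chosen with its levels known and the rule cannot call a locus lower that had under 1 RPKM at 3 h. Of all 1362 loci 1.03% were called lower. Of the 95 loci with a mean of at least 1 RPKM 7 were (7.37%), among them AT1G70185, AT3G02832 and level1_lnc-339, which are not on the list. AT1G06002, outside that list because AT1G06000 has no UGT symbol, had 52 reads at 12 h and 160 at 3 h; it is named here after its values were seen.

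**Figure D5:**
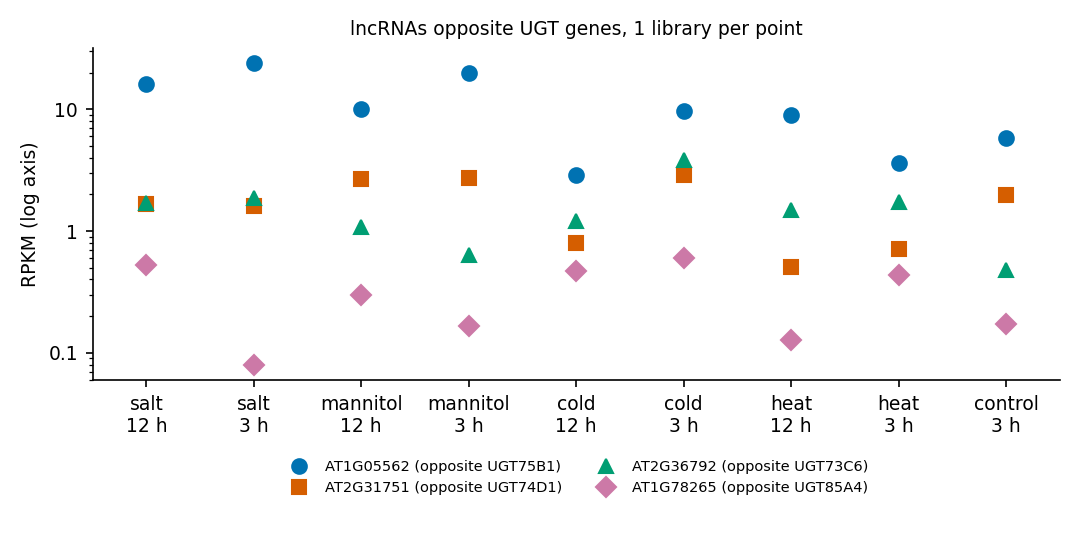
RPKM on a log axis of the 4 lncRNAs opposite UGT genes that reached 10 reads, with 1 point per library. AT1G05562 is the highest in every library, and AT1G05562, AT2G31751 and AT2G36792 are each lower in cold at 12 h than at 3 h (ratios 0.299, 0.278 and 0.317).

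The study also deposited features of the transcript. AT1G05562 is classed as a small RNA precursor, as are 44 of the 469 annotated transcripts, and not as antisense. Its listed histone marks are H3K18Ac, H3K36me3, H3K4me2, H3K4me3 and H3K9Ac, marks known from active genes, and 72 transcripts are listed with all 5. The authors' deposited score for H3K36me3, which follows elongation, was 6.64, above all but 5 of the 44 precursors (median 0.880) and above the median of all transcripts (2.98). That for H3K4me3, a mark of starts, was 8.49 (precursor median 1.38), and that for H3K9Ac 9.75 (2.68). The 192 annotated antisense transcripts had medians of 4.22 for H3K36me3, 6.04 for H3K4me3 and 6.76 for H3K9Ac. Of them 48, 64 and 60 were scored higher than AT1G05562. H3K9me2, a mark known from silent chromatin, was scored at 5.84, above the precursor median (4.94) and the median of all transcripts (0), though it is not among the listed marks. CpG methylation was scored at 4.40, against a precursor median of 48.0, an antisense median of 17.5 and a median of all transcripts of 12.9. These marks lie on DNA that AT1G05562 shares with UGT75B1, so which of the pair they belong to cannot be told apart.

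The authors' structure conservation index was 0.47, under the 0.5 that the study required, and the deposited randfold p-value of its folding stability was 0.905. AT1G05562 is in neither the authors' deposited table of stress-responsive annotated lncRNAs (125 entries) nor the deposited table of co-expressed gene functions (338 entries). Its poly(A) class is NA, the class the file header gives to loci of the lowest expression, and none of the other loci of that class stood above it in mean RPKM. The expression values were re-matched to loci as described under the processing: on its own row the sheet prints 0.0340 RPKM for heat at 3 h, 0.0499 RPKM for the untreated seedlings and 0 for the other libraries. By the mean of the values as printed, 152 of the 190 loci of class NA stood above AT1G05562, and the class reached 40.3 RPKM. Re-matched, its own mean of 11.2 RPKM was the highest of the class. Whether the class and the lists were made from the values in the printed order was not tested.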

How the data were processed

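Levels are RPKM of the authors, as the headers of the deposited tables name them. Per the submitters' processing notes the tools included TopHat2 2.0.8, Bowtie 0.12.9 and Cufflinks, with the genome build TAIR10. How reads were counted, and whether by strand, was not given in the sources used here, so reads of UGT75B1 counted for AT1G05562 were not tested for. Conservation, structure and chromatin values are scores deposited by the authors, and the folding p-value is the authors' randfold p-value, per the file headers. The mixed tissue sample (plants of 5 weeks) was not analysed here, and 24 columns of per-sample values that match none of the libraries were not used.

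RPKM times exon length fell on whole multiples of 1 step per library, which gave mapped and whole reads (within 0.02 reads). All 2790 non-zero values of predicted loci were whole. Of 1922 annotated values 79 (4.11%) were whole on their own row, and all 1922 after the values had been sorted onto the loci by the digits that follow G in the identifier; of AT1G05562 all 9 were. This order was adopted after the data had been seen. The steps were checked on simulated data. These data were laid out in the adopted order, so that check could not show the order of the deposited sheet.

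Ratios carry exact binomial and levels exact Poisson 95% intervals; reads carry no molecular identifiers, so both cover counting error only. There is 1 library a condition, hence no test. Calls use log2(RPKM + 1) and 2-fold. Coordinates are 1-based; the RefSeq annotation and sequence are of TAIR10.1, in which 766 of 786 distinct introns of the catalogue (97.5%) run from GT to AG and all 384 annotated loci overlap the gene of the same identifier. Copies were sought with blastn 2.17.0; other steps used Python 3.11.15, numpy 2.4.6, pandas 2.3.3, scipy 1.17.1 and matplotlib 3.10.9. Named were AT1G05562, the 10 loci of highest and 3 of lowest r, its neighbours in level in salt at 3 h and the control, and loci of the neighbour lists with at least 10 reads. The locus and all lists were chosen with earlier results of these data known. Alternatives were other pseudocounts, scalings, filters, denominators, distances, the own-row values and leaving out each library.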

Additional observations from a re-analysis of the deposited data

Results flagged for a closer look

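AT1G05562 was flagged because its 12 h library lay on opposite sides of its 3 h library in different stresses. This trait is not particular to it. AT1G06002, for example, had 1.73 RPKM at 12 h and 5.16 at 3 h in cold, but 2.26 and 0.802 in heat. How many loci change direction between any of the stresses was not counted. The full pattern, lower at 12 h in cold, salt and mannitol and higher in heat, was counted. Of the 95 loci with a mean of at least 1 RPKM only AT1G05562 had it, and AT1G05562 was chosen with its levels known. AT4G37432, just under that limit, had it too, by little in heat (0.476 RPKM at 12 h and 0.466 at 3 h). For AT1G05562 the values were as follows. The ratio of 12 h to 3 h was 2.47 in heat, against 0.299 in cold, 0.667 in salt and 0.508 in mannitol. Each rests on 1 library a time, and the difference between the stresses was not tested. Rescaled by the median lncRNA, the ratios were 1.95 in heat, 0.264 in cold, 0.436 in salt and 0.372 in mannitol.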

How the results depend on the processing

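No paired analysis was possible because each condition has 1 library. Of the 14 ratios of AT1G05562, all kept their direction with a pseudocount of 0.1, of 10 or none, and 13 under median-ratio scaling and as a share of lncRNA reads without AT1G15405; the exception was mannitol at 12 h over the control. The highest over the lowest library was 11.4 under median-ratio scaling and 13.7 as that share, against 8.37. With a pseudocount of 10 the log2 differences were 0.72 and 1.11 for salt at 12 h and 3 h over the control, 0.92 for mannitol at 3 h, and -0.61 in cold and 0.48 in heat for 12 h over 3 h, so that 1 of 8 stress ratios and 0 of 4 time ratios passed 2-fold, since it shrinks every ratio. In cold the time ratio was -1.71 with a pseudocount of 0.1 and -1.74 with none. Median-ratio scaling gave 0.63 for salt at 12 h, 1.18 for mannitol at 3 h and 0.80 for the time ratio in heat, and the share gave 0.63, 1.29 and 0.76, with -1.95 for that in cold; the cause was not tested. Against the median of the other stresses of the same time, salt was at 0.77 at 12 h and 1.24 at 3 h, and mannitol at 0.98 at 3 h; this turned the direction of cold at 3 h (-0.98) and heat at 12 h (-0.15), and cold at 12 h (-1.52) and heat at 3 h (-2.17) passed as lower. The values printed on its own row gave -0.070 for salt and mannitol over the control, and for the time ratios -0.048 for heat and 0 for cold, with 0 ratios past 2-fold, since 7 of those 9 values are 0.

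Loci with r above 0.5 numbered 9 of 94, against 100 of 1113 with no filter, 2 of 25 among loci read at least 20 times in each library (a limit chosen after seeing the data) and 4 to 19 when 1 library was left out; the first counts differ mainly by the loci admitted. Calls above the control over the 8 comparisons were 104 at 4-fold, 2591 with a pseudocount of 0.1, 16 with 10, 324 under median-ratio scaling and 101 among annotated loci alone, against 514. Depth limits the low loci most: 6 of the 10 loci beside UGT genes had at most 9 reads, and on log2(RPKM + 1) the pseudocount also damps their ratios.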
